A study of Mus musculus with 20 samples.

Results

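The comparison is between Thy1hi and Thy1- keratinocytes sorted from the epidermis of mouse back skin, both positive for integrin α6 and Sca1, the surface markers of basal keratinocytes of the interfollicular epidermis. It rests on 4 Thy1hi and 4 Thy1- libraries, 8 of the 20 libraries of the series, which were profiled by bulk RNA-seq, and libraries with the same last number were treated as a pair. Of the 53380 genes of the table, the 15305 with a normalized count of at least 10 in at least 3 of these 8 libraries were tested. The rule used these levels and not the direction of any difference, and 121 of the genes tested reached that level only in 1 of the populations. The other libraries came from hair follicle stem cells (HFSCs, 4), dendritic epidermal T cells (DETCs, 5) and Thy1hi cells sorted for a YFP lineage label (3), and they are given only for their levels.

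The labels give every sample, controls included, the genotype Thy1.2CreERT2-Rosa26-EYFP, an inducible Cre under a Thy1 promoter with a YFP reporter, and no treatment, whereas the methods of the study name wild-type C57BL/6J mice for this sort. The labels state ages of 20 to 23 weeks for the Thy1hi and 24 to 27 weeks for the Thy1- libraries, while the series describes 8-week-old mice. Over the whole series the label ages rise from 8 to 27 weeks in sample order, by 1 week per sample. Whether they are real ages cannot be told from the sources used here. By the labels alone, age and population cannot be told apart. Mice of both sexes were used, and cells of several mice may have been pooled, so that the libraries of a population may not stand for single animals. P-values from fits with the pair as a term measure the spread of the Thy1hi minus Thy1- difference over pairs of libraries. Those from fits without it measure the spread between libraries. Libraries were prepared in more than 1 batch, and which library belongs to which batch is not given in the sources used here. Cells were sorted after trypsin digestion, Thy1 and Sca1 being read as surface protein.

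Thy1 (CD90) is a small glycoprotein held on the outer membrane by a lipid anchor. It is known as a marker of T cells, fibroblasts and several kinds of stem and stromal cell. The interfollicular epidermis is renewed from its basal layer. Basal keratinocytes attach to the basement membrane through integrins and hemidesmosomes, express keratins 5 and 14, and divide there. On leaving that layer they switch to keratins 1 and 10 in the spinous layers and then to the proteins of the granular and cornified layers. In bulk RNA a lower level of a gene group can reflect fewer cells of a type or less RNA per cell, and these cannot be told apart.

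The 8 libraries held 7798195 to 12751802 reads on genes, with medians of 10457776 in Thy1hi and 9501345 in Thy1- cells. Of these reads 18.6% to 37.1% fell on the ribosomal RNA gene *Rn45s*. The mitochondrial share of the rest was 10.5% to 15.0% in Thy1hi and 13.0% to 14.3% in Thy1- cells. In Thy1- replicate 4 the values of 3212 genes stood in the wrong row and were put back. At the 1040 of them at 10 or more in each of the other 3 Thy1- libraries, the correlation with the mean of these libraries across genes was 0.0245 as deposited and 0.934 once put back. Among the genes tested, 1181 had been moved.

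In a principal component analysis of the 8 libraries, the first component held 56.4% of the variance and set replicate 4 of both populations, at 97.8 (Thy1hi) and 87.9 (Thy1-), apart from all other libraries, which lay between -59.3 and 6.80. The second component held 15.1% and separated the populations, with Thy1hi libraries at 17.1 to 52.8 and Thy1- libraries at -35.5 to -11.9. The component with the most variance thus set replicate 4 apart and did not separate the populations.

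**Figure D1:**
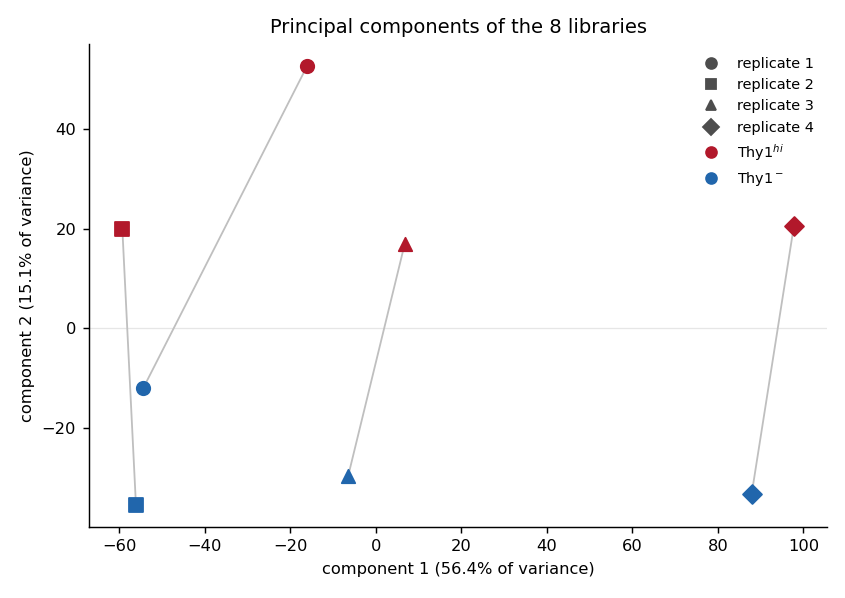
Principal components 1 and 2 of the 8 libraries (log2 normalized counts, centred per gene), with red points for Thy1hi, blue points for Thy1- cells, a marker shape per replicate number and grey lines joining the pairs. Replicate 4 of both populations lies at 97.8 and 87.9 on component 1, and all Thy1hi libraries lie at 17.1 or higher on component 2 while all Thy1- libraries lie at -11.9 or lower.

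*Thy1* itself (ENSMUSG00000032011, chromosome 9 from 44043384 to 44048579, mm10) had 775, 663, 511 and 583 normalized counts in Thy1hi replicates 1 to 4 and 77.8, 66.0, 63.1 and 69.7 in the Thy1- libraries. Normalized counts are reads divided by 1 size factor per library, values are given in the order of replicates 1 to 4, and where 2 sets are joined by "against" the Thy1hi libraries come first. The log2 difference was 3.16 (standard error 0.13), or 8.96-fold, which checks the labels and is no finding because cells were sorted on this protein. Differences here and throughout are Thy1hi minus Thy1- on log2(normalized count + 1), which understates the change of low genes. *Ly6a*, the gene of Sca1, had 261, 186, 196 and 185 against 97.3, 94.9, 104 and 148, with all Thy1hi libraries above all Thy1- libraries (0.90, adjusted p 0.00394). *Cd34*, which marks HFSCs at 1599.8 to 2622, lay at 47.4 to 75.6 in Thy1hi and 43.8 to 103 in Thy1- cells, far below HFSCs in both populations.

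With the pair as a block, limma called 1461 genes (9.55% of those tested) at a Benjamini-Hochberg adjusted p under 0.05, of which 782 (5.11%) were higher and 679 (4.44%) lower in Thy1hi cells. All 8 libraries were apart, without overlap, at 1109 genes (7.25%), 595 higher (3.89%) and 514 lower (3.36%), and 727 of them were called. Of the called genes, 1401 moved the same way in all 4 pairs, and 532 differed by 2-fold or more, 158 upwards and 374 downwards. The median log2 difference over all genes tested was -0.0098. Rescaling every library to the same total gave 571 higher and 860 lower, so that the split of calls depends on the scaling.

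The number of calls rests on the pairing. Without the block it was 206 (1.35%, 0.673% higher and 0.673% lower). It was 1127 without replicate 1 (7.36%, 3.9% higher and 3.46% lower) and 1131 without replicate 2 (7.39%, 4.08% higher and 3.31% lower). Without replicate 3 it was 809 (5.29%, 2.7% higher and 2.59% lower) and without replicate 4 1036 (6.77%, 3.2% higher and 3.57% lower). In count models with the block, edgeR called 1451 genes (9.48%, 4.72% higher) and DESeq2 1267 (8.28%). A fit that also held the level of 4 Y-linked genes called 397 (2.59%, 1.42% higher and 1.18% lower). All genes called without the block, 206 of 206, were also called with it. With complete pairs both fits give the same log2 difference, so that the shared direction was fixed in advance.

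**Figure D2:**
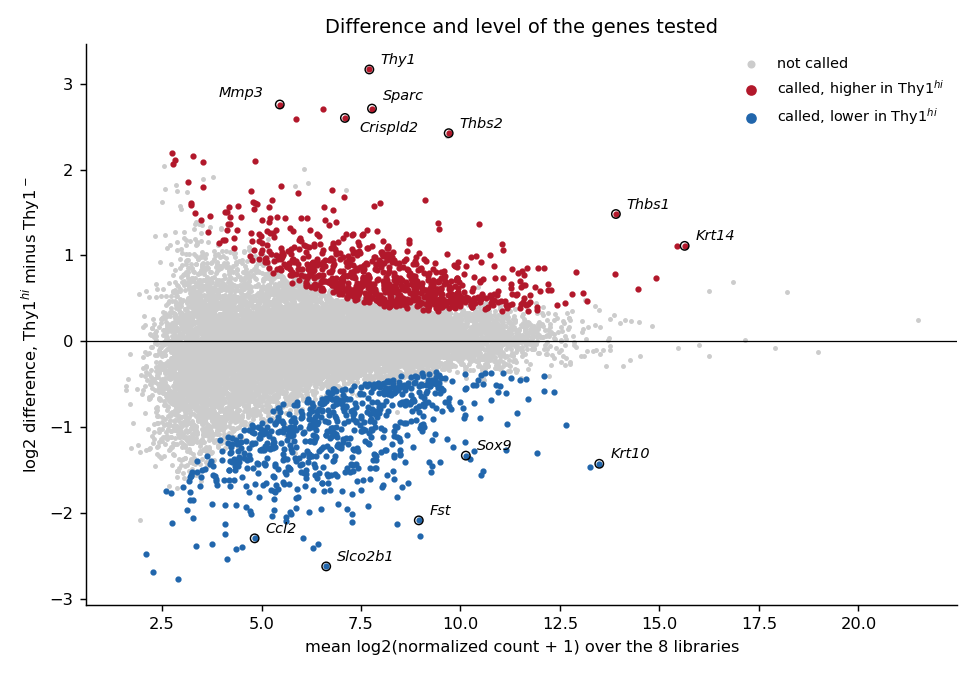
Log2 difference (Thy1hi minus Thy1-, vertical axis) against the mean log2(normalized count + 1) over the 8 libraries (horizontal axis) for the 15305 genes tested. Red points are the 782 genes called higher, blue points the 679 called lower and grey points those not called, with 12 genes circled and named.

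Apart from *Thy1*, the largest rises among called genes without overlap and with a mean of at least 50 included several secreted and matrix proteins. *Sparc* (ENSMUSG00000018593, chromosome 11 from 55394500 to 55423183), a collagen-binding matricellular protein, had 732, 466, 381 and 752 in Thy1hi and 71.8, 87.9, 84.4 and 96.7 in Thy1- cells (6.54-fold, log2 2.71, standard error 0.18, adjusted p 8.93e-07). *Thbs2* (ENSMUSG00000023885, chromosome 17 from 14665500 to 14694262), thrombospondin-2, an inhibitor of vessel growth, had 2351, 1600.4, 1706 and 2157 against 286, 369, 271 and 582 (5.36-fold, adjusted p 8.93e-07). The rule admits only genes without overlap, so that the separation of the populations at these genes is no result. *Mmp3* (stromelysin-1, a matrix protease) had 162, 103, 78.8 and 125 against 24.3, 22.0, 7.10 and 16.4 (6.75-fold, adjusted p 1.16e-05), and *Crispld2*, a secreted cysteine-rich protein, had 379.8, 339, 424 and 233 against 52.3, 53.2, 47.3 and 67.2 (6.06-fold, adjusted p 3.33e-06).

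Other large rises were *BC100530* (2.10), *Pdgfc* (1.81), *Tgm3* (1.76), *Pdpn* (1.75), *Wnt3a* (1.73), *Col23a1* (1.65), *Epb41l3* (1.61), *Trpc1* (1.61) and *Sox15* (1.60), where values in brackets are log2 differences. *Pdgfc* is a growth factor for mesenchymal cells, *Pdpn* (podoplanin) a membrane mucin and *Col23a1* a transmembrane collagen. *Pdpn* had 72.9, 55.3, 43.9 and 30.1 in Thy1hi and 12.2, 17.4, 15.0 and 10.7 in Thy1- cells. *Col23a1* had 1021, 818, 958 and 1133 against 298, 265, 269 and 437. *BC100530* belongs to the stefin A family, whose near-identical members share reads, and it is among the moved genes, so its value is uncertain. Of the 15 largest rises, *Thy1* included, 13 were also called without the block (*BC100530*, adjusted p 0.0508, and *Wnt3a*, adjusted p 0.0657, were not), and all 15 without replicate 4. Calls without the block are favoured by the rule, which asks for no overlap.

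By the same rule, the largest fall belonged to *Slco2b1* (ENSMUSG00000030737, chromosome 7 from 99657804 to 99711340), an organic anion transporter, with 29.8, 38.2, 38.2 and 52.4 in Thy1hi and 174, 208, 294 and 329.5 in Thy1- cells (6.13-fold lower, log2 -2.62, standard error 0.17, adjusted p 8.93e-07). *Enpp1*, an ectoenzyme that makes pyrophosphate from ATP, had 18.8, 29.0, 51.2 and 42.7 against 93.6, 202, 199.6 and 271 (5.28-fold lower). Secreted antagonists of growth factors were also among the falls. *Fst* (follistatin, which binds activins) had 163, 256, 263 and 301 against 790.5, 857, 1402 and 1129 (4.23-fold lower, adjusted p 8.93e-07), and *Sostdc1*, an antagonist of BMP and WNT ligands, had 171, 125, 152 and 211 against 423, 596, 847 and 1184 (4.36-fold lower, adjusted p 5.25e-06). That the populations did not overlap at these 4 genes was a condition of the rule.

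Among the remaining large falls were *Itgb8* (-2.35), *Ccl2* (-2.29), *Gata6* (-2.28), *Alox12e* (-2.26), *Foxc1* (-2.10), *Cd200* (-2.04), *Aadac* (-2.03), *Dpysl5* (-2.01), *Pdk4* (-2.01) and *Adgrl3* (-2.004). *Itgb8* is a subunit of the integrin that activates latent TGF-beta, *Ccl2* a chemokine for monocytes, and *Gata6* and *Foxc1* are transcription factors. *Gata6* had 13.2, 23.7, 37.4 and 59.2 in Thy1hi and 129, 129.6, 119 and 223 in Thy1- cells. *Ccl2* had 8.83, 15.8, 8.94 and 15.5 against 58.4, 69.4, 89.1 and 40.2, with the Thy1hi libraries near the filter's minimum of 10. Of the 15 largest falls, 13 were also called without the block (*Aadac* and *Foxc1* had adjusted p 0.0717 and 0.0578 there) and all 15 without replicate 4. As for the rises, the rule favours such calls. *Rgs4* (-2.53) and *Col8a1* (-2.42) were below the mean of 50 that the rule asks for and were added after their values were seen.

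**Figure D3:**
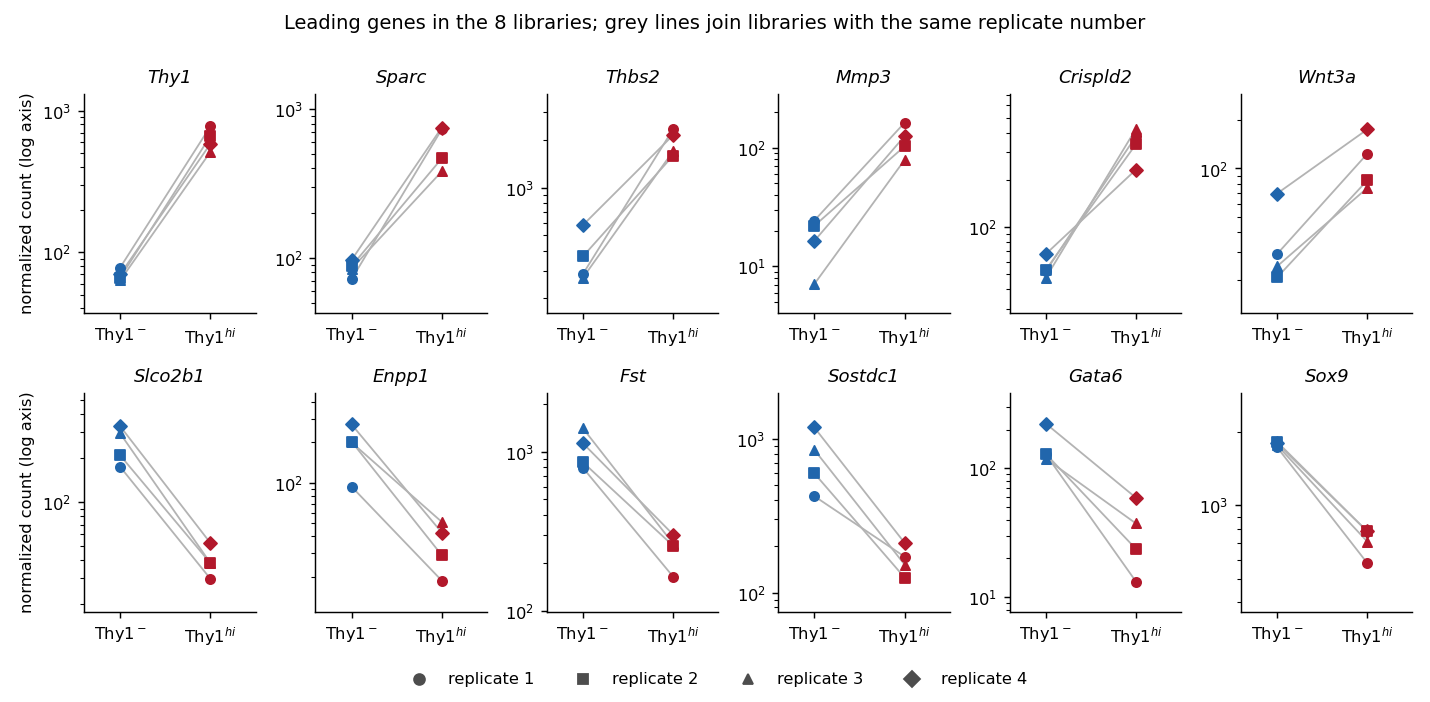
Normalized counts (log axis) of 12 genes in the Thy1- (blue) and Thy1hi (red) library of each pair, with a marker shape per replicate and grey lines joining pairs. The upper row holds genes that rose and the lower row genes that fell in Thy1hi cells. In all 12 the lines of the 4 pairs slope the same way without overlap of the populations, which the rule for the largest changes required of all but *Sox9*.

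Genes of the basal keratinocyte rose together. Of 23 genes listed as basal, 22 were tested, all 22 had a positive difference, and 17 were called higher and none lower, against 5.11% called higher of all genes tested. The median log2 difference was 0.68 (all genes -0.0098), and it was 0.62, 0.81, 0.61 and 0.56 in pairs 1 to 4. *Krt14* and *Krt5*, the paired keratins of the basal layer, had the highest counts of the genes called higher. Replicates 1 to 4 had 90985, 68124, 65455 and 76817 for *Krt14* in Thy1hi and 40609, 27508, 33318 and 38378 in Thy1- cells (1.11, adjusted p 0.000669), and *Krt5* (1.11) likewise did not overlap. *Krt15*, in contrast, overlapped widely, with 21801, 15651, 12668 and 35169 against 14116, 10909.6, 15459.6 and 31533 (0.25, adjusted p 0.386).

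Hemidesmosome and integrin genes of the same list rose by similar amounts. These were *Itga3* (0.88), *Itga6* (0.81), *Itgb4* (0.86), *Itgb1* (0.74), *Col17a1* (0.74), *Plec* (0.61) and *Bcam* (0.99), receptors and linkers that anchor basal cells to laminin. *Itga3* had 2737, 2374, 2042 and 2864 in Thy1hi and 1607, 1152, 1213 and 1473 in Thy1- cells, and *Itgb4* had 6093, 5234, 5793 and 6608 against 3545, 2769, 2827 and 4077. In both, the highest Thy1- library lay below the lowest Thy1hi library. Without the block 7 genes of the list were called higher, and 14 were without replicate 4 and 10 with the level of Y-linked genes in the fit. The gates for integrin α6 and Sca1 were the same in both populations, but levels of the gated proteins within the gates were not analysed here.

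Of 32 basement membrane genes tested (35 listed), 10 were called higher and 2 lower (5.11% and 4.44% of all genes tested), with a median of 0.35. Laminin chains and collagens rose, among them *Lama3* (0.71), *Lamb3* (0.67), *Lama1* (0.95), *Lamb1* (1.09), *Lamc1* (0.60), *Col7a1* (0.79) and *Col18a1* (0.75), as did *Npnt* (0.88) and *Frem2* (0.49). *Lamb1* had 56.3, 63.2, 69.1 and 69.8 in Thy1hi and 34.0, 28.9, 20.5 and 38.5 in Thy1- cells. The exceptions were *Lama4*, with 16.6, 31.6, 21.1 and 53.4 against 57.2, 115, 103 and 98.4 (-1.66), and *Hmcn1* (hemicentin-1), with 176, 285, 309 and 187 against 671, 673, 1052 and 583 (-1.64, adjusted p 4.58e-06). Without the block 5 were called higher and 1 lower.

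Of 30 matricellular proteins and growth factors listed, 20 were tested, and 9 were called higher and 2 lower (5.11% and 4.44% of all genes tested). The median was 0.56. Besides *Sparc*, *Thbs2* and *Pdgfc*, called rises were *Thbs1* (1.48), *Igfbp7* (1.45), *Cyr61* (1.14), *Smoc2* (0.93), *Pdgfb* (0.73) and *Tnxb* (0.66). *Thbs1* had the highest counts of them, with 24099, 25086, 28818 and 24841 in Thy1hi and 11202, 6587, 11117 and 8658 in Thy1- cells. The summed level of the list was 39819 to 48448 in Thy1hi and 16281 to 24446 in Thy1- libraries, without overlap, and *Thbs1* made up much of it. The list holds *Sparc* and *Thbs2*, which were given beforehand as markers of this comparison. Its calls and its sum are therefore no independent result about such proteins. The related genes *Cyr61* and *Ctgf*, both of the CCN family and both known as YAP targets, went in opposite directions. *Cyr61* had 3565, 2113, 3315 and 3734 against 1379, 934, 1699.9 and 1824 (1.14), and *Ctgf* had 28.7, 40.8, 55.3 and 82.5 against 85.1, 222, 78.1 and 219 (-1.46, adjusted p 0.00172). *Igfbp4* also fell (-1.38), while *Igfbp7* rose.

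Fibroblasts make many of these proteins, and some genes of a fibroblast list were also called higher. The list holds 28 genes, among them *Sparc* and the sort gene *Thy1*. Without these 17 were tested, 13 were positive, and 5 were called higher and none lower (5.11% and 4.44% of all genes tested). The 5 were *Col1a1* (2.70), *Col3a1* (2.59), *Dcn* (1.80), *Col1a2* (1.35) and *Col6a1* (0.88). None of the 5 was called without the block. *Col1a1* had 909, 387, 50.4 and 178 in Thy1hi and 57.2, 44.0, 18.9 and 33.6 in Thy1- cells, highest in Thy1hi replicates 1 and 2. *Lum*, below the filter, had 14.3, 13.2, 1.63 and 0.970 against 1.22, 2.31, 2.37 and 0, likewise highest in Thy1hi replicates 1 and 2. *Pdgfra* had 34.2, 44.8, 23.6 and 22.3 against 38.9, 47.4, 27.6 and 20.5 and was not called (-0.09, adjusted p 0.88). The summed level of the list without *Sparc* and *Thy1* was 4431, 3097, 4887 and 2119 in Thy1hi and 1366, 2542, 2493 and 2448.5 in Thy1- cells, higher in pairs 1 to 3 and lower in pair 4. Its part in the matricellular rises was not tested.

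Genes of the cell cycle were higher in Thy1hi cells. Of 51 S phase genes tested, all 51 had a positive difference and 30 were called higher. Of 55 genes of G2 and M phase, 53 were positive and 34 were called higher, with none of either list called lower. Over all genes tested 7469 of 15305 were positive and 5.11% were called higher. The medians were 0.73 and 0.82. Without the block 4 and 15 were called, and with the level of Y-linked genes in the fit 13 and 29.

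In S phase the called genes included the helicase that licenses origins, with *Mcm2* (0.80), *Mcm3* (0.90), *Mcm4* (0.70), *Mcm5* (0.92), *Mcm6* (0.76) and *Mcm7* (0.59). Others were *Cdc45* (1.17) and the E2F factors *E2f1* (1.07) and *E2f8* (1.07). *Mcm5* had 541, 399, 361 and 544 in Thy1hi and 229, 227, 195 and 328 in Thy1- cells. *Pcna*, the sliding clamp of the polymerases, was not called, with 199, 189.7, 163 and 233 against 168, 129.6, 113 and 170.5 (0.44, adjusted p 0.0637).

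In G2 and M phase the largest rise was that of *Anln* (anillin, of the cytokinetic ring), with 1134, 1021, 1250.2 and 1040 in Thy1hi and 314, 526, 435 and 462 in Thy1- cells (1.37, adjusted p 3.75e-05). *Top2a*, the topoisomerase that untangles chromosomes, had 2173, 1859, 2239 and 1816 against 946, 1391, 932 and 1038 (0.92, adjusted p 0.000518). *Cdk1*, the kinase that drives mitosis, had 179, 136, 176 and 183 against 73.0, 109.9, 63.1 and 77.0 (1.07). In these 3 genes the populations did not overlap. *Mki67*, the proliferation marker, had 4848, 4237, 5680.4 and 3117 against 1939.7, 3727, 2441 and 1926 (0.85, adjusted p 0.00273) and did overlap, Thy1- replicate 2 lying above Thy1hi replicate 4.

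The size of this rise varied between pairs. The median of the G2 and M list was 1.04, 0.20, 1.09 and 0.78 in pairs 1 to 4, and that of the S phase list 0.98, 0.45, 0.74 and 0.59. Pair 2 thus had the smallest difference in both. Leaving out pair 3 brought the calls to 18 in each list, leaving out pair 1 to 24 (G2 and M) and 20 (S phase), and leaving out pair 2 raised them to 40 and 31. Of 15 cell cycle inhibitors tested, 4 were called higher and none lower (5.11% and 4.44% of all genes tested). The 4 were *Gadd45g* (0.61), *Cdkn2d* (0.61), *Rbl1* (0.58) and *Gadd45a* (0.54), and *Cdkn1a* (-0.18, adjusted p 0.375) and *Cdkn1b* (-0.13, adjusted p 0.636) were not called. Without the block or with the level of Y-linked genes in the fit none of this list was called, without replicate 1 or 2 1 was and without replicate 4 2 were. Their summed levels overlapped (11513 to 12719 and 10888 to 12498).

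The promoters of many of the mitotic genes hold 2 short motifs, the CCAAT box and the cell cycle homology region (CHR). RefSeq windows of 300 bases (250 before and 50 after the start, GRCm38.p6) were at hand for 29 of the 34 called genes, 20 of which held both CCAAT and TTTGAA or TTCGAA on either strand (69.0%), compared with 7.06% of the 10434 genes tested that have a window and 8.61% of the 27025 genes with one. Over the whole list it was 31 of 46 genes (67.4%), so that the share belongs to the list as a whole. Of the called S phase genes, 15 of 22 held an E2F-like GCGGGAA or GCGCGAA (68.2%, 12.3% of genes tested) and 4 of 22 both CCAAT and CHR. Over the whole S phase list 24 of 37 genes held the E2F-like motif (64.9%), so that the share belongs to the list and not to the called genes. CCAAT alone was in 72.7% of the called S phase and 75.9% of the called G2 and M genes (42.7% of genes tested), and is not particular to the mitotic genes. Matches that share bases were kept, and a gene with several windows counted once, with a match in any. A match says only that the letters are in the window.

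The 150 bases upstream of the start are shown for *Ube2c*, *Cdk1* and *Top2a*, which were called without overlap and hold both motifs there, with each CCAAT box and CHR, on either strand, in capitals. They lie at chr2:164769779-164769928 on the plus strand, chr10:69352913-69353062 on the minus strand and chr11:99024190-99024339 on the minus strand.
Ube2c: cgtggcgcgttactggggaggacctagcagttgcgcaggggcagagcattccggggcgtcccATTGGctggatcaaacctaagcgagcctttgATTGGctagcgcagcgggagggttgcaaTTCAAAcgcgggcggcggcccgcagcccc
Cdk1: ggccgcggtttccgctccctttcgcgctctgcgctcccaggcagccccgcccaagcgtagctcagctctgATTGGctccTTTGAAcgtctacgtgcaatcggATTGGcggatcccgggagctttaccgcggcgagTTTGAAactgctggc
Top2a: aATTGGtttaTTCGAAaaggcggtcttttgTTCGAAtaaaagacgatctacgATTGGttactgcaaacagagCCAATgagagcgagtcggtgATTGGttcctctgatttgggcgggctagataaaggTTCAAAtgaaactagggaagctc

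*Ube2c*, the conjugating enzyme of the anaphase-promoting complex, had 137, 133, 87.0 and 120.3 in Thy1hi and 64.5, 55.5, 40.2 and 54.9 in Thy1- cells (1.13, adjusted p 0.000829). Its window holds CCAAT boxes 88 and 57 bases and a CHR 29 bases upstream of the start, and that of *Cdk1* holds CCAAT boxes 80 and 48 and CHRs 71 and 15 bases upstream.

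Genes of differentiating keratinocytes were lower in Thy1hi cells. Of 24 spinous genes tested (25 listed), none was called higher and 13 were called lower, against 4.44% of all genes, with a median of -0.68. Of 57 genes of the granular layer and cornified envelope, 44 were tested, 35 were called lower and 1 higher, with a median of -1.25. *Krt10* and *Krt1*, the suprabasal keratins, had the highest counts of the spinous genes called lower. *Krt10* had 3777, 6247, 6677 and 15384 in Thy1hi and 15638, 21556, 15479 and 23997 in Thy1- cells (-1.42, adjusted p 0.000245). *Krt1* (-0.98) and *Krt77* (-1.46) also fell, with overlap between the populations. Of the spinous list, 2 genes were called lower without the block and 8 with the level of Y-linked genes in the fit.

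Among cornified genes, *Ivl* (involucrin, an early precursor of the envelope) had 94.9, 277, 208 and 312 against 364, 698, 675 and 394 (-1.32, adjusted p 0.000698), and *Klk7*, a protease that sheds corneocytes, had 116, 208, 207 and 244 against 362, 793, 736 and 377 (-1.50). Every pair was lower for both. *Flg2* (-1.29), *Lor* (-0.92), *Abca12* (-1.26) and *Cdsn* (-1.23) fell as well. Members of the Lce1 and Sprr families, with *Sprr4* (-1.75), *Sprr1a* (-1.22), *Lce1h* (-1.62) and *Lce1d* (-1.67), share near-identical reads and their single values are uncertain.

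The exception was *Tgm3*, a transglutaminase of the envelope, which rose, with 263, 154, 132 and 290.1 in Thy1hi and 53.5, 64.8, 56.0 and 58.2 in Thy1- cells (1.76, adjusted p 0.000144). It was also called without the block (adjusted p 0.0166), whereas *Tgm1* fell (-0.92). The fall of the cornified list was uneven between pairs, with medians of -1.77, -1.35, -1.45 and -0.38 in pairs 1 to 4, that of pair 4 being the smallest. Without the block only 1 gene was called lower (*Klk7*, adjusted p 0.0448). With the level of Y-linked genes in the fit 8 were, and 24 to 35 with 1 pair left out.

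**Figure D4:**
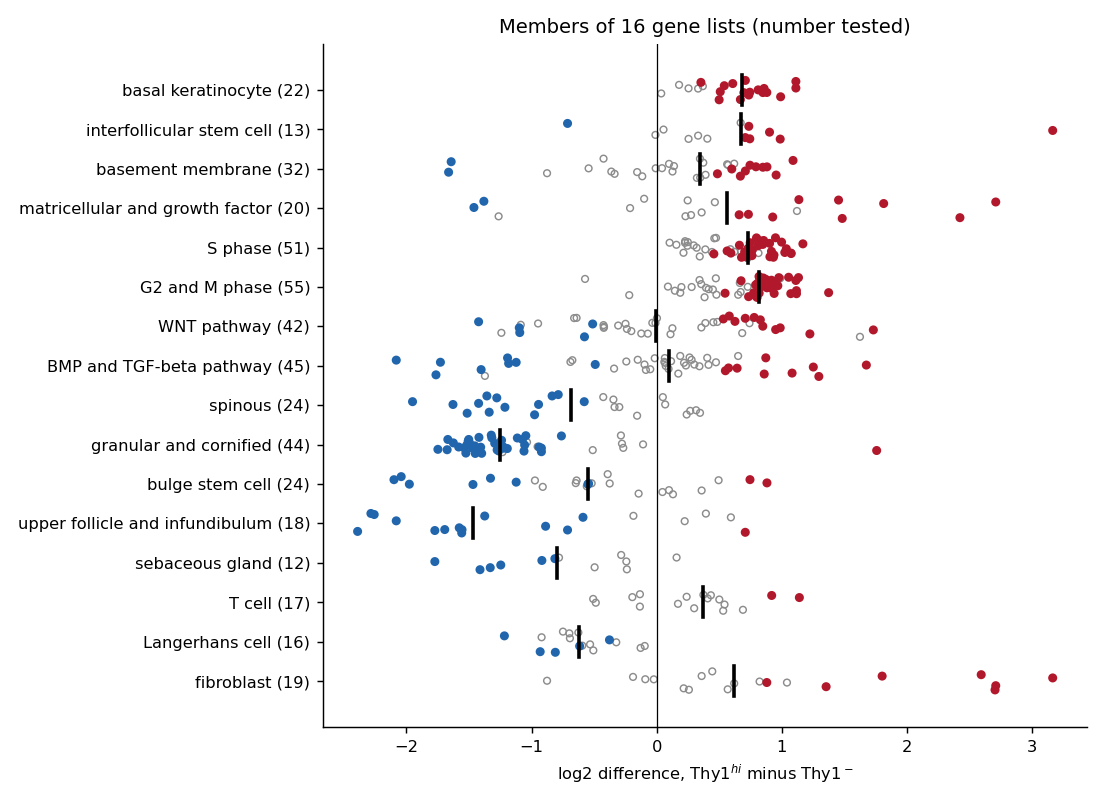
Log2 difference (Thy1hi minus Thy1-) of the members of 16 gene lists that were tested, with filled points for called members (red higher, blue lower), open points for members not called and a black bar at the median of each list. Medians run from -1.46 for the upper follicle to 0.82 for G2 and M phase, and the number tested is given in brackets.

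Most genes tested of the upper hair follicle were lower in Thy1hi cells too. Of 18 genes of the upper follicle and infundibulum tested (19 listed), 13 were called lower and 1 higher (4.44% and 5.11% of all genes tested). The median was -1.46 (-1.87, -1.21, -1.23 and -0.89 in pairs 1 to 4). The list was chosen with earlier results of these data known and holds *Fst*, *Gata6* and *Alox12e*, named above among the largest falls. Its count and median are therefore no independent result about the upper follicle. *Krt79* and *Krt17*, keratins of this region, had log2 differences of -1.56 and -0.59. *Alox12e*, an epidermal lipoxygenase, had 120.3, 320.1, 201 and 368 in Thy1hi and 1015, 1261, 1037 and 1134 in Thy1- cells (-2.26, adjusted p 4.58e-06). *Ly6g6c* (-1.69), *Atp6v1c2* (-1.56), *Cst6* (-1.37) and *Defb6* (-1.77) fell without overlap. Without the block 6 were called lower, and 13 without replicate 4.

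The member that rose was *Lgr6*, a receptor of R-spondins that marks cells of the isthmus and the interfollicular epidermis. It had 815, 672, 669.8 and 1725 in Thy1hi and 438, 443, 504 and 907 in Thy1- cells, higher in every pair (0.71, adjusted p 0.00134), although replicate 4 of the Thy1- cells lay above 3 Thy1hi libraries. *Lrig1*, a feedback inhibitor of the EGF receptor in the same region, fell (-0.71, adjusted p 0.00171).

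Of 24 bulge genes tested (25 listed), 2 were called higher and 8 lower, with a median of -0.55. Over all genes tested 5.11% were called higher and 4.44% lower, and the 2 rises are near that share. *Sox9*, a transcription factor of follicle stem cells, had 579.6, 782, 710.5 and 782 in Thy1hi and 1733, 1823, 1765 and 1798 in Thy1- cells, without overlap (2.51-fold lower, adjusted p 5.04e-06). *Runx1* had 113, 126, 136 and 130 against 325, 399, 289 and 401 (-1.47), and *Cd200* (-2.04), *Foxc1*, *Pthlh* (-1.98), *Grem1* (-1.12), *Barx2* (-0.55) and *Nfatc1* (-0.54) also fell. *Nfatc1* is among the moved genes. *Cd34*, *Lgr5*, *Gli1*, *Lhx2* and *Tbx1* had differences of -0.39, -0.64, -0.91, -0.97 and -0.56 and were not called (adjusted p 0.331, 0.166, 0.113, 0.102 and 0.285). Without the block 1 gene was higher and 4 were lower. Both rises, *Col18a1* and *Npnt*, also stand in the basement membrane list.

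Of 12 sebaceous gland genes tested (18 listed), 6 were called lower and none higher (4.44% and 5.11% of all genes tested), with a median of -0.80. Those called were *Mgst1* (-1.41), *Cyp4f39* (-1.33), *Dgat2* (-1.25), *Fabp5* (-0.92), *Acsbg1* (-0.81) and *Defb6*. Without the block 2 were. The list of hair shaft and inner sheath had 11 of 26 genes tested, and only *Tchh* was called (-0.47). Of 13 genes tested from a list of interfollicular stem cell markers, 6 were called higher, among them *Wnt4*, *Lgr6* and *Ly6a*, and *Lrig1* lower. The list holds *Thy1* and *Ly6a*, which were used for the sort. Without the block 2 genes of it were called, both higher, and with the level of Y-linked genes in the fit 3. *Axin2*, *Slc1a3* and *Klf5* were not called (-0.01, 0.05 and 0.40, adjusted p 0.975, 0.909 and 0.0645). *Dlx1* was below the filter, at 0 to 7.90 in Thy1hi and 0 to 9.73 in Thy1- cells.

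In the WNT pathway, every ligand that was called was higher, while receptors went both ways. Of 42 WNT pathway genes tested (57 listed), 11 were called higher and 5 lower (5.11% and 4.44% of all genes tested), with a median of -0.0039. The 7 ligands called were all higher, with *Wnt3a* (1.73), *Wnt6* (1.22), *Wnt4* (0.99), *Wnt10a* (0.95), *Wnt3* (0.85), *Wnt5a* (0.78) and *Wnt7b* (0.53). *Wnt3a* had 124, 84.3, 75.6 and 176 in Thy1hi and 29.2, 20.8, 24.4 and 69.7 in Thy1- cells, and *Wnt4* had 757, 524, 597 and 838 against 293, 304, 290.3 and 495. *Wnt3* (0.85) was the member of the list that was also called without the block (adjusted p 0.0411). In the fit with the level of Y-linked genes, 5 genes of the list were called higher and 1 lower.

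Among the receptors *Fzd10* rose (0.83), and *Fzd1* (-0.58), *Fzd3* (-1.10) and *Fzd7* (-1.09) fell. *Fzd7* had 167, 200.2, 219 and 309 in Thy1hi and 299, 572, 429 and 648 in Thy1- cells, lower in all pairs. Of the receptors of R-spondins, *Lgr6* rose and *Lgr4* fell (-0.51). The ubiquitin ligase *Znrf3* (0.58), which removes WNT receptors from the surface, and the secreted inhibitor *Sfrp1* (0.63) rose, and *Dkkl1* fell (-1.42). *Axin2*, a common transcriptional target of the pathway, had 343, 258, 337 and 618 against 292, 336, 331 and 584.

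In the BMP and TGF-beta pathway, 9 of 45 tested genes (50 listed) were called higher and 8 lower (5.11% and 4.44% of all genes tested). The median was 0.09. Ligands rose and fell, with *Bmp4* (1.25), *Bmp3* (1.08) and *Tgfb1* (0.87) higher and *Inhbb* (-1.40), *Bmp6* (-1.19) and *Bmp7* (-0.49) lower. *Bmp4* had 243, 221, 276 and 226 in Thy1hi and 145, 50.9, 116 and 119 in Thy1- cells, and *Inhbb*, a subunit of activin B, had 35.3, 39.5, 56.1 and 45.6 against 83.9, 129.6, 106 and 161. Receptors called were all higher, namely *Bmpr1b* (1.30), *Tgfbr2* (0.57) and *Tgfbr3* (0.55). Other falls were *Fst* (-2.08), *Ltbp1* (-1.73), *Ltbp2* (-1.18) and *Grem1* (-1.12), and *Grem1* was not called without replicate 2, 3 or 4. *Ltbp1*, which holds latent TGF-beta in the matrix, had 83.9, 90.9, 127 and 98.0 against 253, 327, 363 and 390.2. *Smad3* (0.64) and *Tgfbi* (0.86), the latter a known TGF-beta target, rose. The eighth gene called lower, the inhibitory *Smad6*, lay at 1.10 to 6.79 in Thy1hi and 6.31 to 20.5 in Thy1- cells and passed the filter only through the Thy1- cells, so that its call was favoured by the filter. Without the block 4 were called higher and 3 lower, and without replicate 4 7 and 4. In the fit with the level of Y-linked genes, 2 were called higher and 4 lower.

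In the EGF receptor family, 6 of 19 genes tested were called higher and 3 lower (5.11% and 4.44% of all genes tested). The ligands split, with *Nrg2* (1.27), *Nrg1* (1.17), *Epgn* (0.85) and *Hbegf* (0.60) higher and *Ereg* (-1.47) and *Btc* (-1.07) lower, the third fall being *Lrig1*, and the feedback inhibitors *Errfi1* (0.73) and *Dusp6* (0.40) higher. *Nrg1* and *Nrg2* are among the moved genes. Of 25 YAP and TEAD targets tested, 5 were called higher and 5 lower (median 0.14), the falls besides *Ctgf* being *Nt5e* (-1.25), *Arhgef17* (-1.01), *Rbms3* (-0.996) and *Amotl2* (-0.66). Of 22 Notch pathway genes tested, 3 were higher, namely *Dll1* (0.64), *Rfng* (0.57) and *Jag2* (0.55), and 3 lower, namely *Notch3* (-0.94), *Dtx4* (-0.73) and *Notch2* (-0.54), and *Notch1* was not called (0.12). Without the block 1 gene of the EGF list, 2 of the YAP and TEAD list and none of the Notch list were called. Without replicate 4 the YAP and TEAD list had 2 higher and 3 lower. In the fit with the level of Y-linked genes, 2 genes of the EGF list and 2 of the YAP and TEAD list were called, all higher. None of the Notch list was called there. *Notch2*, *Notch3* and *Nt5e* are among the moved genes.

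Lists of stress and adhesion genes held calls in both directions. Of 31 immediate early and heat shock genes tested, which mark handling of cells as well as signalling, 7 were called higher and 3 lower (9.55% of all genes in either direction), the latter being *Egr2* (-0.99), *Hspa1a* (-0.78) and *Hspa1b* (-0.45), with a median of 0.19 and overlapping sums (92976 to 146907 and 82143 to 133323). *Atf3*, a stress-induced transcription factor, had 12801, 8743, 8251 and 15742 in Thy1hi and 6747, 5764, 7693 and 12986 in Thy1- cells (0.48, adjusted p 0.0455). Of 32 genes of sterol and fatty acid synthesis, 3 were called higher, among them *Insig1* (0.66) and *Pmvk* (0.55), and of 32 interferon-stimulated genes, 1 was. Of 31 genes of desmosomes and cell adhesion, 6 were called higher and 5 lower, with *Dsg2* (0.59), *Dsg3* (0.50) and *Gja1* (1.06) among the former and *Dsc1* (-1.51) and *Dsg1b* (-0.58) among the latter. Without the block 1 gene of these 4 lists was called, and edgeR called 3 immediate early genes higher instead of 7. Without replicate 4 none of the sterol and fatty acid list was called. In the fit with the level of Y-linked genes, that list had 2 genes called higher and the immediate early and heat shock list 1 called lower. None of the adhesion or interferon list was called there.

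Markers of other epidermal cells were examined because T cells also carry Thy1. The summed level of 28 T cell genes was 462 to 952 in Thy1hi and 474 to 712 in Thy1- libraries, and 45744 to 86207 in DETCs. Of 17 genes tested, *Cd3e* (1.14, adjusted p 0.0204) and *Il2rg* (0.92) were called higher and none lower. This is near the share of all genes tested, 9.55% called in either direction. *Cd3e* had 32.0, 47.4, 39.0 and 83.4 in Thy1hi and 18.2, 10.4, 20.5 and 47.5 in Thy1- cells, with overlap, against 3435 to 6287 in DETCs. *Cd3g* and *Cd3d*, subunits of the same receptor, were not called (0.30 and -0.19).

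Langerhans cell genes were lower, with 5 of 16 tested called lower (4.44% of all genes tested), none higher and a median of -0.62. The 5 were *H2-Aa* (-1.22), *H2-Ab1* (-0.93), *Cd74* (-0.81), *Cd207* (-0.62) and *Epcam* (-0.38). *Cd207* (langerin) had 106, 216, 104 and 217 in Thy1hi and 170.3, 314, 183 and 295 in Thy1- cells, lower in every pair, and the list summed to 1727 to 2634 and 2597 to 3778. No Langerhans or T cell gene was called without the block or with the level of Y-linked genes in the fit. Of 8 melanocyte, 8 endothelial and mural, 4 Merkel cell and 1 adipocyte and muscle gene tested, *Mitf* (-0.67) and *Cspg4* (-0.61) were called, both lower. These calls are near the share of all genes tested, 9.55% in either direction. Neither gene was called without the block or with the level of Y-linked genes in the fit. The part of such cells in the other differences was not tested.

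Of the 183 genes named here that were called, 32 were not called without replicate 4, namely *Plec*, *Npnt*, *Cdkn2d*, *Gadd45a*, *Grem1*, *Barx2*, *Tchh*, *Wnt5a*, *Fzd1*, *Lgr4*, *Znrf3*, *Sfrp1*, *Bmp6*, *Bmp7*, *Tgfbr2*, *Smad3*, *Smad6*, *Nrg2*, *Dusp6*, *Arhgef17*, *Rbms3*, *Rfng*, *Dtx4*, *Hspa1b*, *Atf3*, *Insig1*, *Pmvk*, *Dsg3*, *Il2rg*, *Epcam*, *Mitf* and *Cspg4*. None of them changed direction in that fit. More of the 183 depended on the pairing and on the Y-linked level. Without the block 122 of them were not called, and with the level of Y-linked genes in the fit 100 were not.

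**Figure D5:**
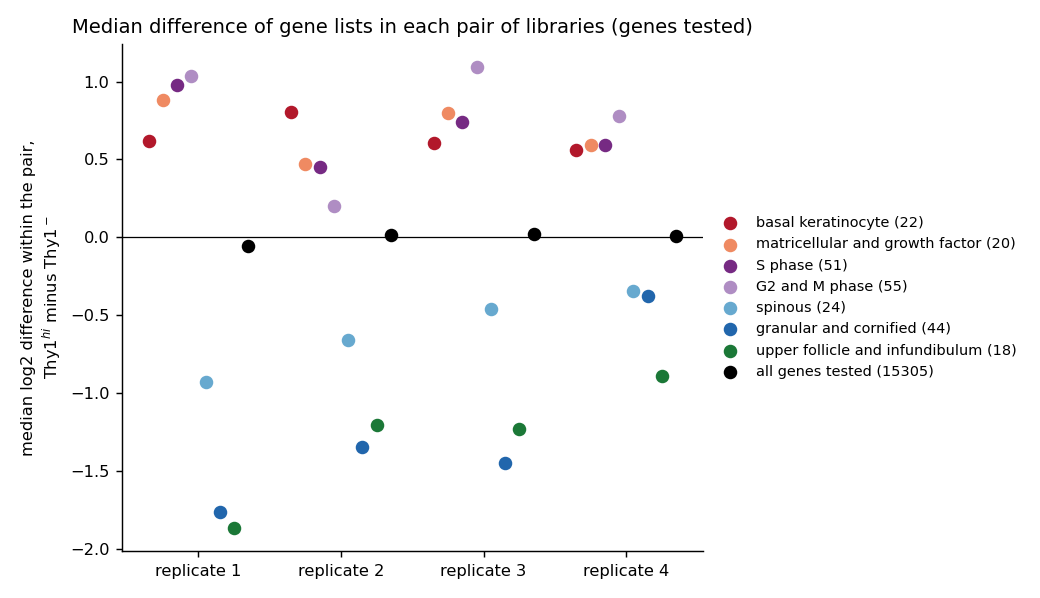
Median log2 difference (Thy1hi minus Thy1-) of 7 gene lists and of all genes tested within each pair of libraries, with the number of genes tested in brackets. Basal, matricellular, S phase and G2 and M lists are above 0 and spinous, cornified and upper follicle lists below 0 in all 4 pairs, while all genes lie between -0.05 and 0.02.

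The pairs were not matched in every respect. *Ddx3y*, a gene of the Y chromosome, had 209.8, 73.8, 4.06 and 274 in Thy1hi and 29.2, 5.79, 4.73 and 193 in Thy1- cells and was called higher (1.65, adjusted p 0.0382). The level differed several-fold within pairs 1 and 2. *Eif2s3y* had 67.3, 43.5, 0 and 161 against 19.5, 0, 0 and 119, and *Xist*, expressed from the inactive X of females, had 11741, 15503, 23941 and 4195 against 17184, 16441, 19769 and 7164 (-0.28, adjusted p 0.337). These genes were chosen after their values were seen. With the level of *Ddx3y*, *Eif2s3y*, *Kdm5d* and *Uty* as a covariate 397 genes were called, 375 of them shared with the 1461 and all in the same direction.

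For the leading genes the levels in the other libraries are given as a description. In the 3 YFP-labelled Thy1hi libraries, *Sparc* had 237 to 392, *Thbs2* 585 to 2204, *Mmp3* 155 to 451, *Slco2b1* 16.9 to 61.1, *Fst* 162 to 391 and *Sox9* 486 to 1112 normalized counts. In HFSCs *Sparc* had 452 to 1345, *Slco2b1* 62.4 to 128, *Fst* 677 to 1689.9 and *Sox9* 1235 to 4861. HFSCs thus reached the level of *Sparc* in Thy1hi cells, while *Crispld2*, at 233 to 424 in Thy1hi cells, had 1.40 to 48.5 in HFSCs and 11.0 to 82.9 in DETCs. Summed G2 and M genes were 20452 to 25901 in Thy1hi, 12700.1 to 17459.6 in Thy1-, 20874 to 34292 in YFP-labelled and 7089.9 to 7752 in HFSC libraries.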

How the data were processed

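RNA of sorted mouse keratinocytes was sequenced by the study. The authors aligned reads with STAR to mm10, counted them over genes with featureCounts and normalized them for DESeq2, and they deposited 1 table of the whole series whose signal values are counts divided by a size factor per library. Versions of the aligner and counter and the strand setting are not given in the sources used here. Every value came out as a whole number of reads (100% in each library), so depth could be recovered from the deposited values. In 1 column (Thy1-, replicate 4) 3212 rows were out of order and were put back.

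Groups were taken from the sample titles. Genes that reached 10 in 3 or more of the 8 libraries were fitted on log2(value + 1) with limma 3.58.1 (trend, R 4.3.3), with population and replicate number as terms, and p-values were adjusted by Benjamini-Hochberg over all 15305 genes. Libraries were paired by replicate number, a rule set beforehand. Deviations of same-numbered libraries from their group means correlated in every pair (r 0.36 to 0.77 over genes, against -0.72 to 0.60 for the 12 other combinations). Such deviations cancel within a population, which pulls the other combinations down. Thy1- replicate 1 correlated more with Thy1hi replicate 2 (0.602) than with replicate 1 (0.364).

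Counts recovered from the deposited values were also tested with edgeR 4.0.16 and DESeq2 1.42.0. Other alternatives were the fit without the block, all 20 libraries, other pseudocounts, filters and scalings, the row order as deposited and leaving out each replicate. Genes were named if they were in the lists, among the 15 largest rises or falls (called, no overlap, mean of at least 50 in the higher population, no predicted symbol) or the 10 with the highest means in each direction, or are named by the study for these cells. Members and lists were chosen with earlier results of these data known, so that the calls within a list are no independent test of it. Promoter windows are from RefSeq (GRCm38.p6). Gene names, IDs and coordinates are those of the deposited table. Some genes that the rule names are not reported here.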

Additional observations from a re-analysis of the deposited data

Results flagged for a closer look

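Among 406 groups of 4 libraries checked (203 named genes in 2 populations), 25 had 1 library whose gap to the nearest other took up more of the group's range than Dixon's critical value for 4 samples (6.16%), and chance flags about 1 in 20 groups. Values are normalized counts. Thy1hi replicate 1 was the highest library for *Ly6a* (261, the nearest other at 196). Thy1- replicate 4 was the highest library for *Gata6* (223, the nearest other at 129.6), *Plec* (26377, the nearest other at 17018), *Tnxb* (3507, the nearest other at 2178), *Mcm2* (519.7, the nearest other at 274), *Lgr6* (907, the nearest other at 504), *Wnt4* (495, the nearest other at 304), *Axin2* (584, the nearest other at 336), *Bmp7* (414, the nearest other at 248), *Jag2* (2555, the nearest other at 1322), *Dtx4* (109.8, the nearest other at 54.4), *Ddx3y* (193, the nearest other at 29.2), *Eif2s3y* (119, the nearest other at 19.5) and *Kdm5d* (137, the nearest other at 57.9). Thy1hi replicate 2 was the lowest library for *Cdk1* (136, the nearest other at 176), *Sfrp1* (178, the nearest other at 233) and *Il2rg* (27.7, the nearest other at 51.4). Thy1- replicate 1 was the highest library for *Cdkn1a* (1142, the nearest other at 957). Thy1hi replicate 2 was the highest library for *Sprr4* (13.2, the nearest other at 3.31). Thy1hi replicate 4 was the highest library for *Lgr6* (1725, the nearest other at 815). Thy1- replicate 2 was the highest library for *Cyp4f39* (205, the nearest other at 119.7), *Fabp5* (766, the nearest other at 616) and *Tchh* (753, the nearest other at 502). Thy1- replicate 1 was the lowest library for *Fzd3* (82.7, the nearest other at 130.2). Thy1hi replicate 3 was the highest library for *Dsg2* (1753, the nearest other at 1472). Of the 25, 13 were Thy1- replicate 4 at the top.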

How the results depend on the processing

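With 1461 genes called in the blocked fit, 206 were called without the block, 58 when all 20 libraries shared 1 fit without it, 702 with no filter on low values (more genes tested) and 294 with the rows of Thy1- replicate 4 as deposited. The last of these settings leaves the misplaced values of 1 library in the test. The remaining causes were not tested. Leaving out 1 pair at a time gave 809 to 1131 calls, the lowest without replicate 3, and leaving out 1 library without the block 24 to 207 (28, 99, 36 and 207 without Thy1hi replicates 1 to 4, and 127, 47, 24 and 159 without Thy1- replicates 1 to 4). Genes without overlap were 1988 to 2785 with 1 pair left out, against 1109 in all, fewer libraries having to be apart. A pair of alternatives were chosen after seeing the data. Leaving out moved genes and shared names gave 1379 calls, and the replicate block with the level of 4 Y-linked genes 397. In every setting, genes called both there and in the blocked fit had the same direction. This was fixed in advance for the fits without the block that left no library out. Rescaling to the same total turned the split to 571 higher and 860 lower, and pseudocounts of 0.1 and 10, a mean of at least 50, quantile normalization, edgeR and DESeq2 gave 1237 to 1550 calls.

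Directions turned for 7 genes that were not called and 3 that were. With the Y-linked level the log2 difference was -0.0593 for *Krt15*, 0.131 for *Axin2*, -0.00176 for *Slc1a3*, -0.603 for *Cd3g*, -0.281 for *Eif2s3y* and -0.105 for *Kdm5d*, and with the same total -0.0187 for *Slc1a3*. With 1 pair left out it ran from -0.276 to 0.0196 for *Cdkn1b*, from -0.0913 to 0.112 for *Axin2*, from -0.018 to 0.116 for *Slc1a3*, from -0.136 to 0.668 for *Cd3g* and from -0.00134 to 0.352 for *Kdm5d*. With the rows as deposited, the moved genes *Nfatc1* (0.0735), *Notch3* (0.996) and *Notch2* (2.07), called lower in the blocked fit, turned upwards. Depth limits low genes, whose differences the pseudocount shrinks.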
